A study of Drosophila melanogaster with 8 samples.

Results

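Tweedle genes code for secreted proteins of the insect cuticle, the chitin-based layer that epidermal cells deposit on the outside of the body. The 10 genes followed here were TwdlT, TwdlC, TwdlD, TwdlE, TwdlF, TwdlG, TwdlL, TwdlM, TwdlV and TwdlX of Drosophila melanogaster, taken by gene symbol from spots that the array's probe-to-gene table pairs with exactly 1 gene. Of these, 8 genes were measured, on 9 spots, among 10609 genes measured in all. TwdlL and TwdlX had no such spot and were not analysed here. TwdlE had 2 spots, which were averaged, and the other genes had 1 each.

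Cuticle is made of chitin fibres and proteins, and a new one is laid down before each moult and again during metamorphosis, so different sets of cuticle proteins are known from larval, pupal and adult cuticle. The Tweedle family is known from insects only. Dominant mutations of TwdlD and of Tb, a further family member also called TwdlA, make Drosophila larvae and pupae short and stout, and tagged Tweedle proteins have been seen in the larval cuticle. In the silkworm, Tweedle proteins have been shown to bind chitin.

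The series held 8 spotted 2-colour arrays, each with RNA from larvae in one channel and RNA from adults in the other. Both RNAs came from Canton S, a wild-type strain with no allele or treatment named in the labels, and each was a mixture of stages whose ages the labels do not give. Portions of a common homogenate in TRIzol, a phenol-based reagent, were taken through extraction of polyA RNA and labelling separately, to assess technical error. The arrays are therefore technical replicates, and every p-value below measures only the spread between arrays. Larvae were in channel 1 on 4 arrays (replicates 1, 3, 6 and 8) and adults were in channel 1 on the other 4 (replicates 2, 4, 5 and 7). Each deposited value was the log2 of the ratio of the 2 channels, and as deposited the values of 2 arrays of opposite orientation were negatively correlated (Pearson's r over spots between -0.81 and -0.51).

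For what follows, each array was centred on the median of its gene spots and the sign was reversed where adults were in channel 1. The result, called the turned log2 ratio, is comparable between all 8 arrays, and a difference of 1 in it is a 2-fold difference. The sources used here do not say which channel the authors put in the numerator. Results are therefore given as the positive or the negative side, with no stage attached to either. Of the larval markers looked for, 3 were measured: the salivary glue genes Sgs1 and Sgs5 stood at -2.38 ± 0.76 and -1.45 ± 0.60 and Sgs4 at 0.11 ± 0.54 (SD, n = 8). Of 9 adult markers measured, 4 were called positive, where 29.2% of all genes were, and 2 were called negative, where 27.9% were. The highest were fln at 2.35 ± 0.68 and Act88F at 1.64 ± 0.80. Next came the yolk protein gene Yp1 at 1.17 ± 0.40 and Yp2 at 0.75 ± 0.28. The 2 negative ones were Acp36DE at -0.38 ± 0.27 and Vm26Aa at -0.37 ± 0.23. SP at -0.29 ± 0.36, Vm34Ca at -0.18 ± 0.30 and Yp3 at 0.02 ± 0.11 were not past the threshold. These lists were not used to assign a stage to a side.

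The first comparison was between larval and adult RNA. They went both ways. TwdlT and TwdlE lay far on the positive side, at mean turned ratios of 2.79 ± 0.62 and 2.34 ± 0.19 (SD, n = 8), that is 6.93-fold and 5.06-fold. TwdlM, TwdlF and TwdlG lay far on the negative side, at -2.49 ± 0.91, -2.35 ± 0.60 and -1.73 ± 0.55, that is 5.61-fold, 5.11-fold and 3.32-fold. TwdlD was on the negative side with a smaller ratio, -0.62 ± 0.29, and TwdlC at 0.28 ± 0.75 and TwdlV at -0.14 ± 0.61 did not pass the test. In RNA of whole animals, fewer cells of a type and less RNA per cell cannot be told apart.

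In the limma fit of all genes, with an adjusted p of 0.05 as threshold, 2 of the 8 Tweedle genes passed with a positive ratio and 4 with a negative one. Over all genes, 57.1% passed, 29.2% with a positive and 27.9% with a negative ratio, so passing alone does not set a gene apart on these arrays. Differences of at least 2-fold were rarer. Positive ones were found for 6.25% of all genes and negative ones for 3.11%, against 2 and 3 of the 8 Tweedle genes. The median absolute ratio was 2.04 over the 8 Tweedle genes and 0.31 over all genes. The members were chosen with earlier results of these data known, so these comparisons with all genes are description only. In all, 6 of the 8 had one sign on all 8 arrays, as did 41.7% of all genes. Tweedle genes are a multigene family, and the sources used here do not say whether a probe also binds a close copy, which makes single-member values uncertain.

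**Figure D1:**
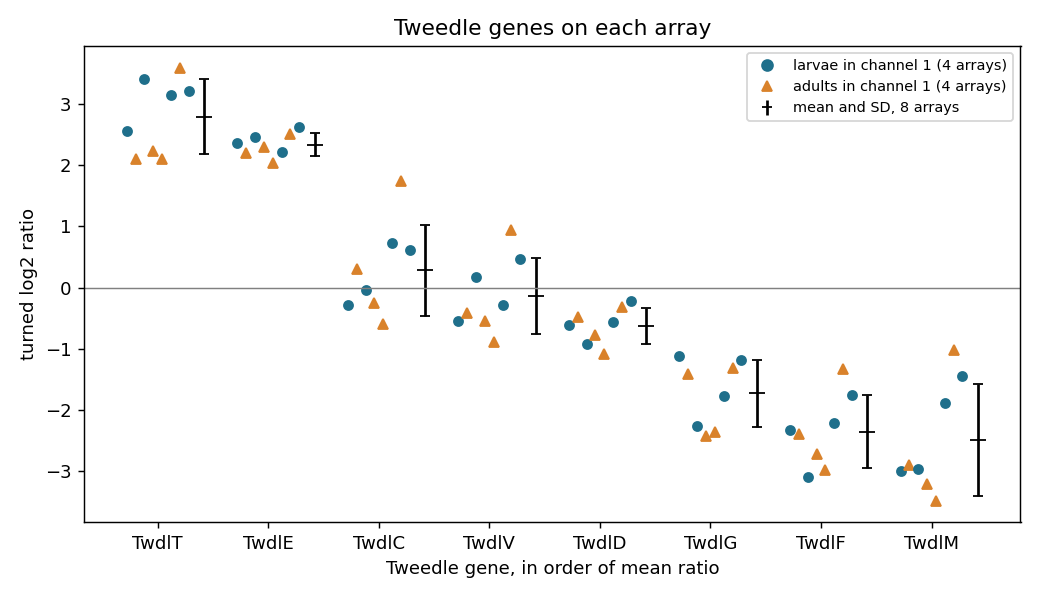
Turned log2 ratio (vertical axis) of each measured Tweedle gene on each of the 8 arrays, with circles for arrays with larvae in channel 1, triangles for arrays with adults in channel 1, and bars for the mean and SD of 8 arrays. All points of TwdlT and TwdlE lie above 2, all points of TwdlD, TwdlG, TwdlF and TwdlM lie below 0, and those of TwdlC and TwdlV lie on both sides.

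TwdlT had the highest mean of the 8 genes. With larvae in channel 1 its turned ratios were 2.55, 3.41, 3.14 and 3.22, and with adults in channel 1 they were 2.10, 2.23, 2.10 and 3.60. With adults in channel 1, replicate 7 stood well above the 3 others, which were closely spaced between 2.10 and 2.23. The arrays with larvae in channel 1 were spread from 2.55 to 3.41. The ratio was positive on 8 of 8 arrays (limma adjusted p = 2.31e-07, 95% interval 2.43 to 3.16). Within each array, TwdlT stood at or above percentile 98.7 of all genes.

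TwdlE, the only one of the 8 averaged over 2 spots, had the smallest spread between arrays. Its ratios were 2.37, 2.46, 2.21 and 2.62 with larvae in channel 1 and 2.20, 2.30, 2.04 and 2.52 with adults in channel 1, so both sets covered nearly the same range. It was positive on 8 of 8 arrays (limma adjusted p = 5.13e-09, 95% interval 2.15 to 2.53). Its residual SD of 0.19 was at percentile 15.4 of all genes and that of TwdlD, 0.31, at percentile 54.2. Those of TwdlT, TwdlG, TwdlF, TwdlV, TwdlC and TwdlM were between percentiles 92.2 and 99.7. Taken singly, the 2 TwdlE spots had residual SDs of 0.29 and 0.20. The value of TwdlE averages 2 spots that did not give the same size of difference. The first averaged 2.92 ± 0.28 and the second 1.76 ± 0.28, and the first was higher on 8 of 8 arrays, by 1.16 ± 0.40 (exact two-sided sign-flip permutation test, p = 0.00781, the smallest that 8 arrays can give, and 0.0156 adjusted over the 4 Tweedle genes with 2 spots). The side was therefore the same for both spots and the size was not.

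On the negative side, TwdlM had the lowest mean and the widest spread. Its ratios were -3.00, -2.97, -1.89 and -1.44 with larvae in channel 1 and -2.90, -3.21, -3.48 and -1.01 with adults in channel 1. Replicates 6, 7 and 8 lay closer to 0 than the other 5 arrays, and no array was positive (limma adjusted p = 1.43e-05, 95% interval -3.06 to -1.92). The residual SD of TwdlM was at percentile 99.7 of all genes, and its spot was dim, at percentile 13.6 of a brightness recovered from the ratios.

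TwdlF was the next lowest. Its ratios were -2.33, -3.10, -2.21 and -1.76 with larvae in channel 1 and -2.39, -2.72, -2.99 and -1.33 with adults in channel 1. The 2 sets overlapped, and the means of the 2 orientations, -2.35 ± 0.56 and -2.36 ± 0.73 (SD, n = 4 each), were nearly equal (limma adjusted p of the stage difference = 1.55e-06). Its spot was bright, at percentile 94.8.

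TwdlG lies next to TwdlF on chromosome arm 3R. Its ratios were -1.12, -2.27, -1.77 and -1.19 with larvae in channel 1 and -1.42, -2.42, -2.36 and -1.31 with adults in channel 1. All were negative, and again the 2 orientations overlapped (limma adjusted p = 6.67e-06, 95% interval -2.09 to -1.37). Within each array it stood between percentiles 1.14 and 2.84 of all genes.

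TwdlD, the gene of the body-shape mutation named above, had a much smaller ratio. It stood at -0.61, -0.92, -0.57 and -0.21 with larvae in channel 1 and at -0.48, -0.77, -1.08 and -0.32 with adults in channel 1. The values were negative on 8 of 8 arrays and amounted to 1.54-fold (limma adjusted p = 0.000621, 95% interval of the log2 ratio -0.86 to -0.39).

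TwdlC and TwdlV were not past the threshold, and both changed sign between arrays. TwdlC stood at -0.28, -0.034, 0.73 and 0.62 with larvae in channel 1 and at 0.30, -0.25, -0.59 and 1.75 with adults in channel 1 (limma adjusted p = 0.293, 95% interval -0.20 to 0.76). TwdlV stood at -0.54, 0.18, -0.28 and 0.47 with larvae in channel 1 and at -0.42, -0.55, -0.90 and 0.94 with adults in channel 1 (limma adjusted p = 0.543, 95% interval -0.54 to 0.27). In both genes the highest value came from replicate 7 and the lowest from replicate 5. Neither interval holds a 2-fold difference in either direction. Without replicate 7 TwdlV stood at -0.33 and passed on the negative side (adjusted p = 0.0323), and it also passed with values as deposited, after a loess curve against brightness and with array weights, so its call depends on the processing. The spot of TwdlV was among the brightest on the arrays, at percentile 99.0, and that of TwdlC among the dimmer ones, at 11.6.

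The order of the mean ratios was TwdlT, TwdlE, TwdlC, TwdlV, TwdlD, TwdlG, TwdlF and TwdlM, from the positive to the negative end. Each gene was compared with the next by the difference of their turned ratios within an array, with exact two-sided sign-flip permutation tests adjusted over the 7 pairs. The order came from the same 8 arrays, so the pairs and their directions were set by the values tested. The adjustment does not allow for that choice, and these p-values describe each difference without testing the order. At either end of the order, the difference between the averaged values did not pass the threshold. TwdlT exceeded TwdlE by 0.45 ± 0.49, on 6 of 8 arrays, with differences from -0.098 to 1.08 (exact p = 0.0547, adjusted 0.0638), and by 1.04 over the TwdlE spot with the smaller residual SD, the lower of its 2 spots (adjusted exact p = 0.0137). The other TwdlE spot, at 2.92, averaged above TwdlT, so the order of the top genes depends on the spot. TwdlF exceeded TwdlM by 0.13 ± 0.44, on 4 of 8 arrays (adjusted exact p = 0.375), and the difference was -0.053 after a loess curve against brightness.

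The steps in between were larger than the spread between arrays. TwdlE exceeded TwdlC by 2.06 ± 0.67 and TwdlD exceeded TwdlG by 1.11 ± 0.34, each on 8 of 8 arrays (adjusted exact p = 0.0137 for each). TwdlG exceeded TwdlF by 0.62 ± 0.38 and TwdlV exceeded TwdlD by 0.48 ± 0.47, also on 8 of 8 arrays and with the same adjusted exact p, although the difference between TwdlV and TwdlD was -0.0035 after the loess curve against brightness (adjusted exact p = 0.984). TwdlC exceeded TwdlV by 0.42 ± 0.40, on 7 of 8 arrays (adjusted exact p = 0.0328). That step did not pass without replicate 1, 2, 4, 5, 6 or 7, at adjusted exact p values of 0.0547 to 0.0656. With 1 array fewer the smallest p that the test can give is larger, and the difference itself stayed between 0.33 and 0.51.

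Some arrays differed from the others in several Tweedle genes. TwdlM and TwdlF lay closer to 0 on replicates 6, 7 and 8 than on the 5 other arrays, whereas TwdlG was closest to 0 on replicate 1. On replicate 7 TwdlM, TwdlF and TwdlG lay between -1.33 and -1.01, and TwdlT, TwdlC and TwdlV were at their highest. Over 320 genes outside the family that were at least 2-fold on the negative side, the median was -1.08 and -1.003 on replicates 7 and 8 and between -2.16 and -1.48 on the other arrays. Over 661 such genes on the positive side, the median was 1.97 on replicate 7, the highest of the arrays, and 1.49 on replicate 8, within the range of the others. Replicate 7 had the lowest array weight in limma, 0.15, and replicate 5 the highest, 7.92. The span from the highest to the lowest Tweedle gene was 4.93 on replicate 7 and 6.51 on replicate 3, with the other arrays between. The part of these array differences in the spread of the Tweedle genes was not tested.

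**Figure D2:**
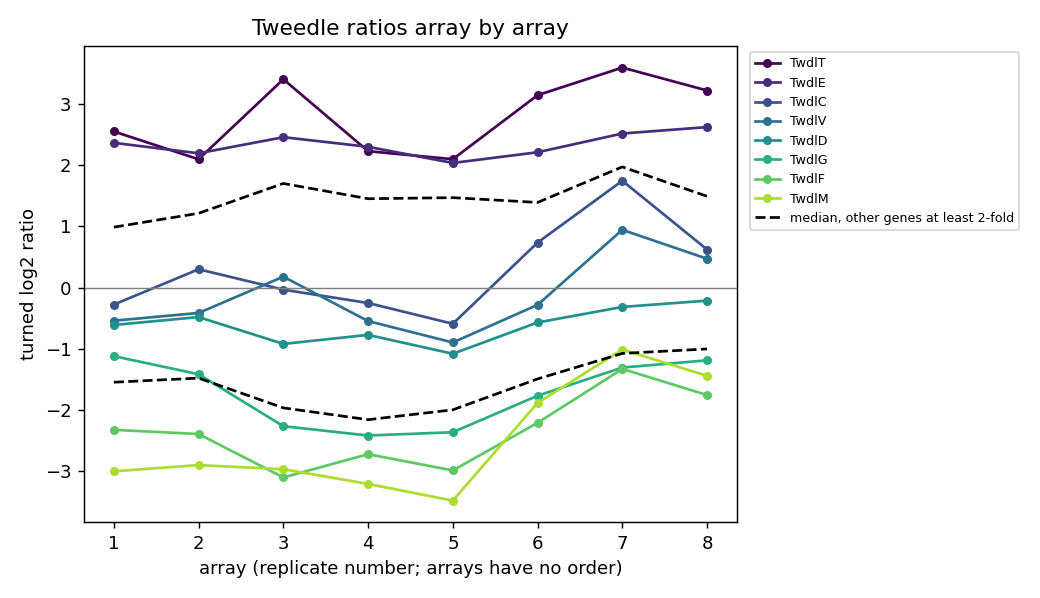
Turned log2 ratio (vertical axis) of the 8 Tweedle genes on each array (horizontal axis, replicate numbers, which have no order), with dashed lines for the medians of the other genes at least 2-fold on each side. TwdlM, TwdlF and the lower dashed line are closest to 0 on replicates 7 and 8, and TwdlG is closest to 0 on replicate 1.

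The second comparison asked whether the ratio depended on which stage was in which channel. For the 8 Tweedle genes, the dye column of the limma fit ran from -0.019 for TwdlC to 0.29 for TwdlT, and its adjusted p ran from 0.914 to 0.999. This coefficient is the distance from the mean of all arrays to the mean of either orientation, not the full difference between orientations. TwdlT averaged 3.08 ± 0.37 with larvae in channel 1 and 2.51 ± 0.73 with adults in channel 1 (SD, n = 4 each). The second mean includes replicate 7 at 3.60. The other arrays with adults in channel 1, at 2.10, 2.23 and 2.10, lay below every array with larvae in channel 1, the lowest of which was at 2.55. TwdlM averaged -2.33 ± 0.78 and -2.65 ± 1.12. No gene on the array passed this test (0% of all genes), and for the 8 Tweedle genes the unadjusted p was 0.108 for TwdlT and above 0.39 for the others, so no dye difference was detectable with 4 arrays a side.

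Relatives of these genes that the symbol list did not include were also on the arrays. They were described because the family lies in runs along the chromosomes. Of 13 further Tweedle genes measured, 11 were past the threshold on the negative side, 0 were on the positive side, and 2 did not pass, against 27.9% of all genes called on the negative side. Their median was -1.35. TwdlJ stood at -2.52 ± 0.74, Tb, the second gene with a body-shape mutation, at -2.42 ± 0.74 and TwdlB at -2.36 ± 0.72, close to TwdlM and TwdlF. Twdlalpha at -0.25 ± 0.33 and Twdlbeta at 0.17 ± 0.48 were the ones not past the threshold (limma adjusted p = 0.0848 and 0.342). With the dimmest 25% of genes left out, 7 of the 13 were tested and 6 of them were called negative, beside 2384 of 7956 genes. Over all 21 Tweedle genes measured, TwdlT and TwdlE were the 2 called on the positive side and 15 were called on the negative.

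The positions of the genes relative to each other were taken from the RefSeq gene table. Most Tweedle genes stand in a single run on chromosome arm 3R, with 14 family members and 1 other coding gene, beat-VII, among them. Of the 14, 12 were measured, and 12 of 12 passed as negative, against 27.9% of all genes. Their median was -1.58. TwdlC, 33 other coding genes further along the arm, and TwdlT were taken as outside the run by the limit of 20 coding genes between neighbours, which was chosen after seeing the data, and with a limit wide enough to join them the run would hold genes of both sides. TwdlM opens the run and TwdlD lies near its other end, between TwdlS at -1.35 ± 0.39 and beat-VII at -0.43 ± 0.34. Sizes varied from gene to gene within the run: TwdlP, next to TwdlM, stood at -0.43 ± 0.26, and TwdlB, the gene after it, at -2.36. The genes bordering the run had small ratios. The cell polarity gene scrib, at 0.31 ± 0.31, passed as positive (limma adjusted p = 0.0331). The peptide hormone convertase gene amon, at -0.23 ± 0.30, did not pass (limma adjusted p = 0.0629). Within the run, beat-VII, no Tweedle gene, also passed as negative (limma adjusted p = 0.00899), at a ratio close to that of TwdlP.

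A smaller run on 3R holds TwdlF, TwdlG and TwdlV, in that order. TwdlF and TwdlG were at -2.35 and -1.73, whereas TwdlV was at -0.14. CG14644, the coding gene between TwdlG and TwdlV, was at 0.09 ± 0.25. TwdlE is the lone family member on 2L, between lectin-28C at 0.46 ± 0.31 and Proc, a neuropeptide gene, at 0.63 ± 0.69. TwdlT lies past TwdlC on 3R, with 9 other coding genes between them, and its direct neighbours CG6271 and Nep5 stood at -2.57 ± 0.59 and -0.39 ± 0.26, on the opposite side from TwdlT. The unmeasured TwdlL belongs to the long run on 3R, and the unmeasured TwdlX to a run of 4 on X of which Twdlalpha was measured.

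**Figure D3:**
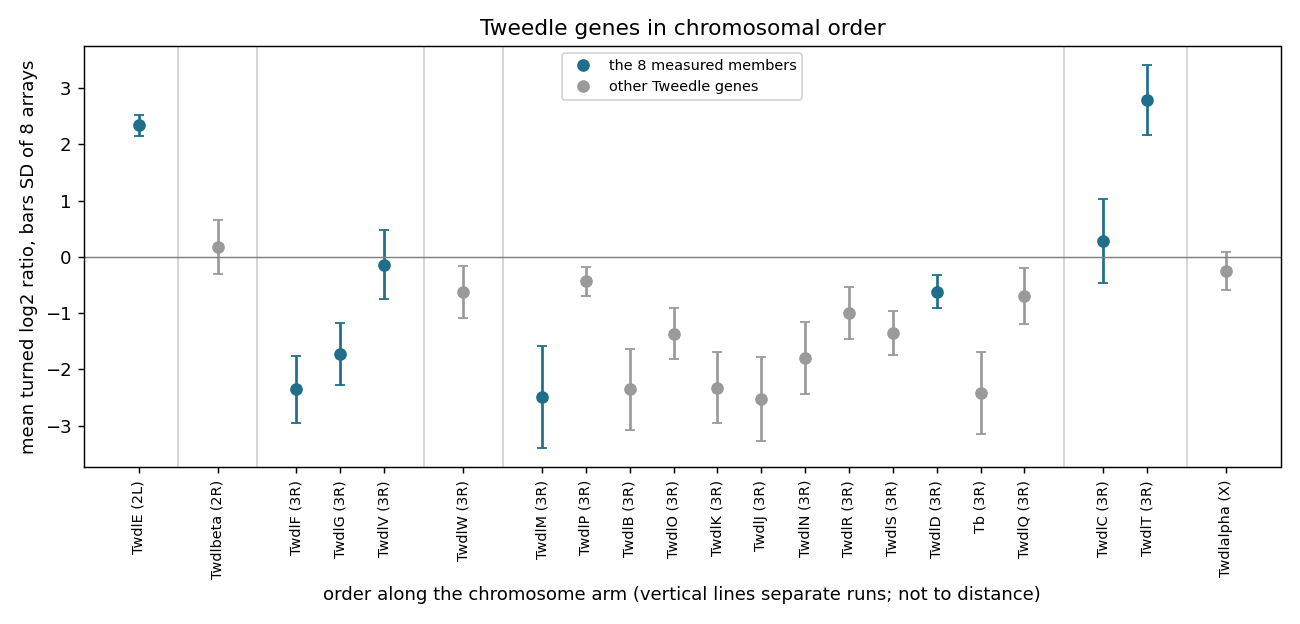
Mean turned log2 ratio (vertical axis, bars SD of 8 arrays) of the 21 measured Tweedle genes in their order along the chromosome arms, with vertical lines between runs. The 12 genes of the long run on 3R all lie below 0, while TwdlE on 2L and TwdlT, in the next group along 3R, lie above 2.

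Other genes of cuticle formation gave a setting for these values. The largest family of cuticle proteins, which carry the chitin-binding Rebers and Riddiford sequence and include the Cpr, Lcp, Ccp84A and Edg genes, also went both ways. Of 75 measured, 40 were called positive and 26 negative, against 29.2% and 27.9% of all genes, and the median was 0.40. The 3 with the largest ratios were all positive: Cpr72Ea at 4.93 ± 0.66, Cpr97Eb at 4.85 ± 0.28 and Cpr64Ac at 4.22 ± 0.29. The lowest of the 75 was at -2.75, near TwdlM.

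With the centring used here, the remaining lists leaned to the positive side. Over all genes, 29.2% were called positive and 27.9% negative. Of 15 proteins of the apical matrix, including those with a zona pellucida domain, 13 were called positive and 1 negative, with Vajk4 at 2.97 ± 0.30, resilin, the gene of the elastic cuticle protein, at 1.85 ± 0.50 and tyn (trynity) at 1.82 ± 0.46. Of 27 genes listed for chitin, 14 were positive and 6 negative. Many of them are chitinase (Cht) or Idgf genes, so these counts are not for chitin synthesis and assembly alone. The largest ratios of either sign were those of Cht5 at 3.21 ± 0.56, Cht10 at 1.88 ± 0.28 and Cda9, a chitin deacetylase gene, at -1.56 ± 0.52. Of 19 genes listed for tanning, 11 were positive and 5 negative. They were led by ple, the tyrosine hydroxylase gene, at 1.88 ± 0.33, yellow-h at 1.59 ± 0.38 and yellow-f at 1.26 ± 0.40. The 19 include tant at 0.42 ± 0.27, called positive, which entered through a synonym and is not known as a tanning gene. All tanning counts and medians given here include it. The medians of these 3 lists were 0.78, 0.38 and 0.43, against -0.012 over all genes.

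Of 24 Osiris genes, which are expressed in cuticle-forming epithelia, 13 were positive and 5 negative, against 29.2% and 27.9% of all genes. Osi3 stood at 3.40 ± 0.69, Osi12 at 2.18 ± 0.68 and Osi22 at 2.07 ± 0.49. Of 17 regulators of cuticle timing, mostly of the ecdysone hormone response, 11 were positive and 1 negative, beside the same shares of all genes. The nuclear receptor genes Eip78C and EcR stood at 1.41 ± 0.36 and 0.94 ± 0.33 and vri at 0.87 ± 0.30. No difference between any of these lists and the Tweedle genes was tested.

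The split between the sides depends on the centring. With values as deposited the median of all genes lay at -0.45 and with arrays centred on all spots at -0.15. The called genes were then 1034 positive and 6029 negative, and 2049 positive and 3690 negative, against 3099 and 2958 here. The Tweedle counts were little affected, with 2 positive and 5 negative of the 8 as deposited, and 0 positive and 12 negative of the 13 relatives. The positive and negative counts as deposited were 32 and 31 for the Rebers and Riddiford family, 7 and 1 for the apical matrix, 9 and 10 for chitin, 6 and 6 for tanning, 5 and 11 for the Osiris genes and 4 and 4 for the regulators.

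**Figure D4:**
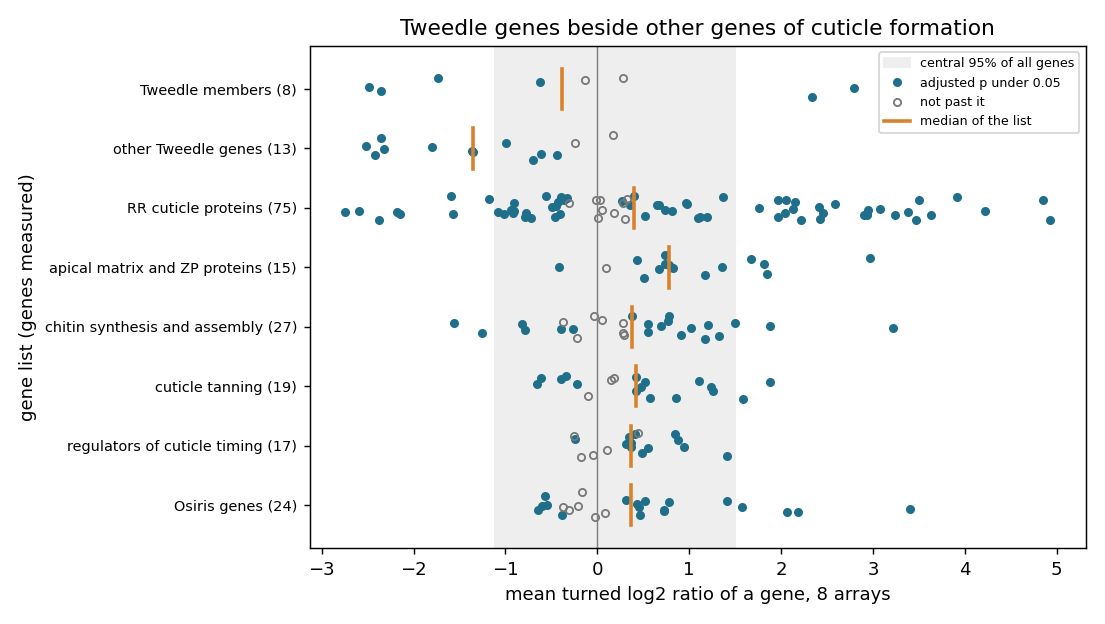
Mean turned log2 ratio (horizontal axis) of each gene in the Tweedle set and in 7 other lists, filled where the adjusted p is under 0.05, with a bar at each list's median and the central 95% of all genes shaded. The 8 Tweedle genes hold points beyond the shaded range on both sides, and the 13 other Tweedle genes lie mostly below 0.

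For each of the 5 Tweedle genes with an absolute mean ratio of at least 1, the gene outside the family with the most similar ratios over the 8 arrays was found by the root mean square difference. For TwdlG this was CG32237, at -1.71 ± 0.49, with a difference of 0.16. For TwdlF it was the fatty acid synthase gene FASN1, at -2.46 ± 0.59, with 0.22. For TwdlM it was CG9682 (-2.60 ± 0.90) with 0.26, for TwdlE CG15109 (2.13 ± 0.27) with 0.28, and for TwdlT CtsK1 (2.61 ± 0.57) with 0.32. All genes share the 8 arrays, so these are descriptions of like values only.

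Under every alternative in which they were fitted, TwdlT and TwdlE stayed past the threshold on the positive side and TwdlD, TwdlG, TwdlF and TwdlM on the negative. TwdlT ranged from 2.36 as deposited to 2.88, TwdlE from 1.76 with the spot of smaller residual SD alone to 2.45, and TwdlF from -2.79 to -2.23. TwdlG ranged from -2.17 to -1.62, TwdlD from -1.06 to -0.55 and TwdlM, which was not fitted with the dimmest 25% of genes left out, from -2.93 to -2.33. TwdlC passed the threshold under none. It was at -0.16 with values as deposited, 0.016 with array weights, 0.040 without replicate 7 and 0.43 without replicate 5.

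**Figure D5:**
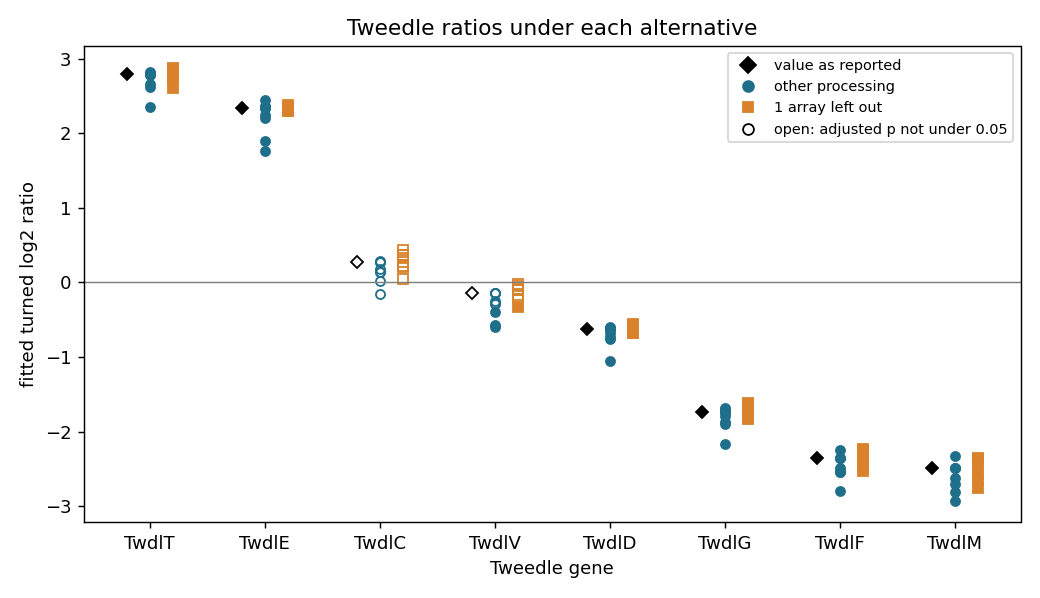
Fitted turned log2 ratio (vertical axis) of each Tweedle gene as reported, under other processing and with 1 array left out, open where the adjusted p is not under 0.05. TwdlV is the gene with both filled and open points.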

How the data were processed

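The deposited values were log2 ratios of the 2 channels of each spot, made by the authors with GenePix scanning on an Axon scanner and Spot version 2.0, per the labels. The sources used here give neither the background handling nor the numerator. All 20000 spots on 8 arrays were recovered as ratios of 2 whole numbers (relative tolerance 1e-12), whose mean log2 gave a brightness, which is too low wherever both numbers had a common factor. The number of arrays limits the precision.

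Of the spots, 12246 were paired with 1 gene, 86 with several and 7668 were unnamed here; 11873 had a match in RefSeq's gene table (Release 6), which served for current names and gene order. Spots of a gene were averaged. The fit (lmFit and eBayes of limma 3.58.1, R 4.3.3) had a stage and a dye column, 6 residual degrees of freedom and Benjamini-Hochberg adjustment over all 10609 genes. Within-array differences between genes next to each other in the order of mean ratios used exact sign-flip permutation tests. That order came from the same arrays. The fit and the permutation test were tested on simulated data. A run of Tweedle genes has at most 20 other coding genes between neighbours, a choice made after seeing the data.

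The members and lists were chosen with earlier results of these data known. Named are all members, for each list the 3 called genes of largest absolute ratio that kept 1 sign on 8 arrays, the most similar gene per member, and chromosomal neighbours. TwdlP, TwdlS, Twdlalpha, Twdlbeta and the stage markers were named after their values were seen. Figures used Python 3.11.15 and matplotlib 3.10.9.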

Additional observations from a re-analysis of the deposited data

Results flagged for a closer look

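In groups of 4 arrays of one orientation, the highest or lowest value was compared with its nearest neighbour by Dixon's ratio of gap to range. Of 16 such groups, 2 for each of the 8 Tweedle genes, 1 was past the 95% critical value for 4 samples, and chance flags about 1 group in 20. It was TwdlT with adults in channel 1, where replicate 7 stood at 3.60 and the 3 other arrays between 2.10 and 2.23. Without replicate 7, and without any other single array, TwdlT stayed between 2.61 and 2.88.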

How the results depend on the processing

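Each array itself sets larval against adult RNA, so the turned ratio is already a paired difference. No further pairing between arrays was possible, because the 2 orientations share no replicate number that could serve as a block. With values as deposited, TwdlV stood at -0.57 (limma adjusted p = 0.00379), and the counts were 6029 negative and 1034 positive for all genes, 11 negative and 5 positive for the Osiris genes, 10 and 9 for chitin, 4 and 4 for the regulators, and 7 positive for the apical matrix and 6 for tanning. Centred on all spots, 2049 of all genes were positive and 3690 negative, and of the regulators 3 were negative and 5 positive. After the loess curve TwdlV stood at -0.60 (limma adjusted p = 0.000254) and TwdlV minus TwdlD at -0.0035. Of the 24 Osiris genes 8 were then negative, beside 3200 of all 10609 genes. With array weights TwdlV stood at -0.40 (limma adjusted p = 0.00695). There 8 Osiris genes and 3 of 17 regulators were negative, beside 3666 of all genes. Negative regulators numbered 2 after scaling, quantile normalization, the loess curve or with the spot of smallest residual SD. All genes called negative numbered 3217, 3257, 3200 and 2983 in these settings, in that order. Leaving out the dimmest 25% means fewer genes tested: 6 other Tweedle genes, 3 chitin genes and 0 regulators were then negative, and 7 regulators positive. Of the 7956 genes tested there, 2384 were negative and 2421 positive. With the TwdlE spot of smallest residual SD, TwdlT exceeded TwdlE by 1.04. With 1 array left out, TwdlV ranged from -0.33 to -0.025 and TwdlC minus TwdlV from 0.33 to 0.51. Negative Osiris genes ranged from 5 to 8 (8 without replicate 7) and negative regulators from 0 to 2. All genes called negative ranged from 2505 to 3057 (3057 without replicate 7). The causes were not tested. Signal over background is not given, so what it limits is unknown.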
